A study of Homo sapiens with 2 samples.

Results

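The HOX cluster genes were described here in C4-2 cells, an established human prostate cancer cell line derived from LNCaP, 48 h after transfection. One array was hybridised with total RNA of cells that received miR-99a, a microRNA, and 1 with RNA of cells that received si-GL2, the control siRNA, so each of the 2 groups is a single array. Both cultures were the same line in the same medium and were transfected with the same lipid reagent, per the labels' protocols, and C4-2 is 1 line, which stands for no other prostate cancer. With 1 array per group there is no replicate error, no p-value can be given, and every difference below lies between these 2 arrays. Members were all probe sets that the platform annotation used here assigns to exactly 1 of 38 listed HOX genes. This rule gave 44 probe sets for 28 genes, out of 19775 genes with such a probe set: 10 genes of the HOXB cluster, 9 of HOXC, 8 of HOXD and 1 of HOXA. The other 10 listed genes were not analysed here. They were HOXA3, HOXA4, HOXA5, HOXA6, HOXA7, HOXA9, HOXA10, HOXA11 and HOXA13, for which no named probe set was used, and HOXD3, whose 3 probe sets are shared with HOXD4.

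HOX genes encode homeodomain transcription factors that give cells their position along the body axis. They lie in 4 clusters, HOXA to HOXD, and genes at the same place in different clusters form paralogue groups, numbered from 1 at the end that is expressed first and most anteriorly to 13 at the end expressed last and most posteriorly. The urogenital tract, the prostate included, belongs to the posterior domain, and HOXB13 is a lineage factor of the prostate that binds chromatin together with the androgen receptor. HOX proteins bind DNA with cofactors of the PBX, MEIS and PKNOX families, and Polycomb and Trithorax complexes keep the clusters silent or active.

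The HOX clusters also carry microRNA genes, and among these miR-10a and miR-10b are relatives of the transfected microRNA. The mature sequences are shown because the transfected miR-99a is the treatment and because miR-10a and miR-196 are made from within the HOX clusters. They are RefSeq sequences on GRCh38.p14, written 5′ to 3′ with the seed, bases 2 to 8, in capitals:
hsa-miR-99a-5p: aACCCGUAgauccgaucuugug
hsa-miR-100-5p: aACCCGUAgauccgaacuugug
hsa-miR-99b-5p: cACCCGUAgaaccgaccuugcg
hsa-miR-10a-5p: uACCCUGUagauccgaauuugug
hsa-miR-196a-5p: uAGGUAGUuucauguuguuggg
hsa-miR-196b-5p: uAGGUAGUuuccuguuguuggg
The first 3 share 1 seed, the 2 miR-196 sequences share another, and miR-10a has a seed of its own. The longest run that miR-10a shares with miR-99a is 10 bases long and starts at base 6 of miR-99a and base 7 of miR-10a. With miR-100 that run is 15 bases and with miR-196a it is 4. The mature miR-99a lies at chr21:16539101-16539122 on the plus strand, outside the HOX clusters. The mature miR-10a lies at chr17:48579904-48579926 on the minus strand, between HOXB4 and HOXB5. The miR-196a sequence comes from 2 genes, at chr17:48632532-48632553 on the minus strand, between HOXB9 and HOXB13, and at chr12:53991762-53991783 on the plus strand, between HOXC10 and HOXC9. The miR-196b sequence lies at chr7:27169528-27169549 on the minus strand, between HOXA9 and HOXA10. These arrays measure messenger and other long RNAs, so the mature microRNAs have no value here. The probe set annotated to MIR10A was dim, at 19.6 on the miR-99a array and 16.5 on the si-GL2 array. The long host transcript of miR-99a, MIR99AHG, had signals of 982 and 950 by its brightest probe set, a log2 difference of 0.05. Its other probe sets were at 238 and 198 (0.24) and at 73.4 and 62.8 (0.18).

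The 2 arrays were alike over all 54675 probe sets, with a Pearson r of 0.988 on the log2(signal + 16) scale and a median signal of 47.8 on the miR-99a array against 47.4 on the other. Of the luminal prostate genes listed, all 10 with a probe set were expressed on both arrays, with KLK3, prostate-specific antigen, at 6180 and 6783. Among them, taking the brightest probe set of each gene, ACP3 differed most downward (-0.54) and KRT8 most upward (0.31). The dimmer probe sets of ACP3 were higher after miR-99a, by 0.11 and 0.63, and averaging over all its probe sets gave 0.06. STEAP2, which has 1 probe set, was lower by a similar amount (-0.52). Probe sets of KLK2 ranged from -0.78 to 1.11, the latter in its dimmest, with a mean of 0.00. The marker lists of other cells held both dim and moderate signals. The listed basal genes had 2 of 6 members expressed, ITGB4 (-0.13) and CD44 (0.10), each by 1 of its several probe sets. The basal signals summed to 151 on the miR-99a array and 166 on the si-GL2 array, with KRT5 at 20.1 and 14.8. Fibroblast and stroma genes had 6 of 10 expressed and sums of 654 and 615, leukocyte genes 3 of 6 and sums of 328 and 276, with PTPRC at 39.5 and 22.5, and endothelial genes 3 of 8 and sums of 482 and 461. The brightest of these were COL1A1 at 230 and 233 and PECAM1 at 194 and 167. Several, PECAM1 and LUM among them, were expressed by 1 of their probe sets only. The next probe set of PECAM1 was at 32.2 and 22.3 and that of LUM at 2.58 and 4.36. The expressed markers of these 3 lists lay between THY1 at -0.46 and LUM at 0.42, CSF1R at -0.27 and CD3E at 0.37, and ROBO4 at -0.10 and TIE1 at 0.55. These values are by brightest probe set. The other probe sets of THY1 went the other way, at 0.10 and 0.37. As means over probe sets THY1 was at 0.01, LUM at 0.15, ROBO4 at 0.09 and TIE1 at 0.38. No listed marker was at 0, since the lowest signal on either array was 0.70, and their part in the results below was not tested.

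A signal is the brightness of a probe set on a linear scale. Probe sets of different genes respond differently to the same amount of RNA, so signals of different genes are given side by side, with their percentile among all probe sets of the same array, and not as folds. A gene is represented by its brightest probe set. It is called expressed when the mean of log2(signal + 16) over both arrays reached the median of all probe sets, a signal of 47.2; the limit only ranks genes within these arrays and does not say that a transcript was detected. Of the 28 HOX genes, 16 were expressed, or 57.1%, against 61.8% of all 19775 genes. On each array taken alone, 12 HOX genes were above the limit on both arrays, 5 on 1 array and 11 on neither.

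HOXB13 and HOXC6 ranked highest among the HOX genes on both arrays. By its brightest probe set HOXB13 was at 2411 after miR-99a and 2341 after si-GL2, at the 97.0th and 96.9th percentile of the arrays. Its second probe set was at 1729 and 1510. Both probe sets were slightly higher after miR-99a, by 0.04 and 0.19 on the log2 scale. HOXC6, a gene often reported as raised in prostate tumours, was at 2150 and 2267, the 96.5th and 96.7th percentile, a difference of -0.08. It was measured by 1 probe set, of the _s_ kind, whose probes can match several transcripts. In RefSeq's gene table HOXC6 overlaps HOXC4 and HOXC5, and the array cannot show from which overlapping transcript a signal comes.

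**Figure D1:**
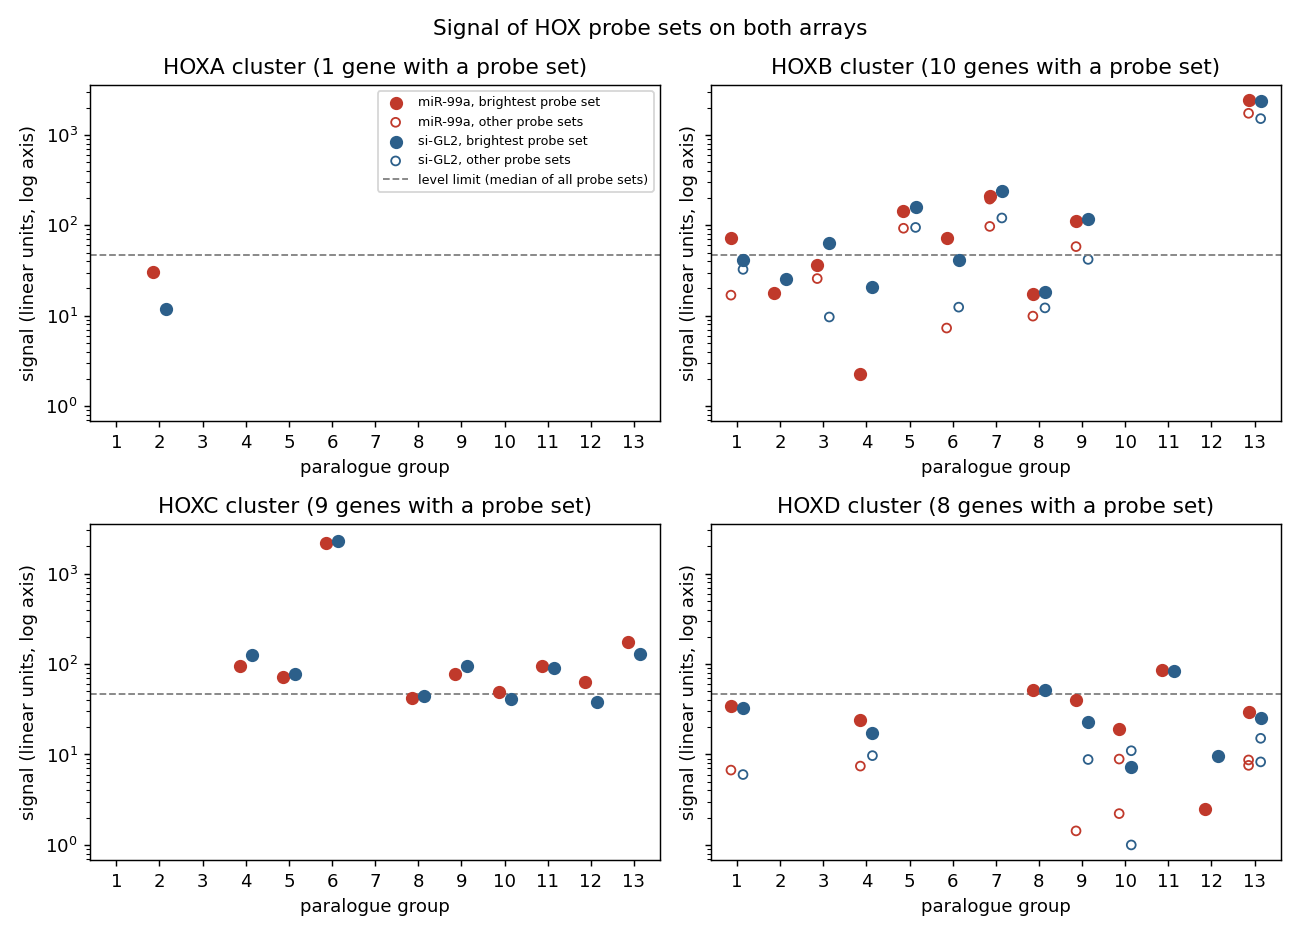
Signal of each HOX probe set (linear units on a log axis) against its paralogue group, 1 panel per cluster. Red is the miR-99a array and blue the si-GL2 array, filled points are a gene's brightest probe set and open points its others, and the dashed line is the level limit of 47.2; HOXB13 and HOXC6 stand well above the other genes on both arrays, and most HOXD points lie below the line.

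In the HOXB cluster 7 of 10 genes were expressed, and HOXB7, HOXB5 and HOXB9 followed HOXB13 in signal. HOXB7 was at 209 after miR-99a and 242 after si-GL2, and HOXB5 was at 144 and 157. HOXB9 was at 110 and 119. All 3 were above the limit on both arrays and lay between the 65.9th and 76.4th percentile. HOXB2 was at 17.7 and 25.5, HOXB4 at 2.25 and 20.6 and HOXB8 at 17.2 and 18.5, so these 3 stayed below the limit on both arrays. HOXB1, HOXB3 and HOXB6 crossed the limit on 1 array only. PRAC1, a prostate-expressed gene that is known as a neighbour of HOXB13, was at 162 and 171, a difference of -0.07.

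In the HOXC cluster 7 of 9 genes were expressed, and signals outside HOXC6 were moderate. HOXC13, the last gene of the cluster, was at 176 after miR-99a and 128 after si-GL2. HOXC4 was at 95.0 and 125, HOXC11 at 95.1 and 91.2, HOXC9 at 77.8 and 94.9 and HOXC5 at 71.7 and 78.2. These 5 genes and HOXC6 were above the limit on both arrays. HOXC12 was above it after miR-99a alone, at 63.4 against 38.0, and so was HOXC10, at 49.2 against 41.3. HOXC8 was below it on both, at 41.8 and 44.7.

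In the HOXD cluster 2 of 8 genes were expressed. These were HOXD11 at 85.5 after miR-99a and 84.3 after si-GL2 and HOXD8 at 51.1 and 52.0. The other 6 HOXD genes ranged from 2.51 to 39.7 after miR-99a and from 7.26 to 32.5 after si-GL2, by their brightest probe sets. HOXD13, of the same paralogue group as HOXB13, was at 29.3 and 25.5, and its other 2 probe sets lay between 7.58 and 15.1. HOXD10 was at 18.9 and 7.26 and HOXD12 at 2.51 and 9.54. The 3 probe sets shared by HOXD3 and HOXD4 were dim as well, between 1.38 and 11.7. HOXA2, the 1 gene of the HOXA cluster with a named probe set used here, was at 30.7 and 11.8, below the limit on both arrays.

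The percentiles of paralogues are given side by side; since each comes from another probe set, they do not compare amounts of RNA. In group 13, HOXB13 was near the 97.0th percentile after miR-99a, HOXC13 at the 72.7th and HOXD13 at the 38.4th. In group 6, HOXC6 was at the 96.5th percentile and HOXB6 at the 58.4th. In group 9, HOXB9 was at the 65.9th, HOXC9 at the 60.0th and HOXD9 at the 45.8th. In group 4, HOXC4 was at the 63.4th, HOXD4 at the 33.6th and HOXB4 at the 3.60th. In group 11, HOXC11 was at the 63.4th and HOXD11 at the 61.6th. All these percentiles are from the miR-99a array, by brightest probe set. On the si-GL2 array HOXB4 was at the 30.5th and HOXD4 at the 26.2nd. There HOXC13 was at the 67.8th, HOXD9 at the 32.8th and HOXB6 at the 46.9th, below the limit. The second probe set of HOXB6 was at the 10.8th after miR-99a and the 19.3rd after si-GL2.

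After miR-99a the HOX genes above the limit on both arrays differed little from the control, and none of the 12 reached 1.5-fold in either direction. This set was chosen after the data were seen, and asking for both arrays tends to leave out genes that differ. It leaves out the expressed genes HOXB1, HOXB3, HOXB6 and HOXC12, described below. A difference is log2(signal + 16) after miR-99a minus that after si-GL2, which understates the change of dim genes, and 1.5-fold is a rule of size, not a test. Of all 11851 genes above the limit on both arrays, 1.05% were at least 1.5-fold higher and 2.68% lower, so a count of 0 among 12 is near what the share over all genes would give. The 12 genes ranged from -0.35 to 0.41 with a median of -0.08, against a median of -0.03 and an SD of 0.26 over all 12218 expressed genes. Of the 12, 8 lay below 0 and 4 above, and 9 lay within 0.2 of it. Of all 12218 expressed genes, 6876 lay below 0 and 7606 within 0.2 of it, so these counts were read no further.

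The lowest and the highest of these 12 genes were both in the HOXC cluster and each rested on 1 probe set. HOXC4, whose signals were 95.0 after miR-99a and 125 after si-GL2, was lowest at -0.35. HOXC9 followed at -0.24. HOXC13, at 176 and 128, was highest at 0.41, in a probe set of the _s_ kind. HOXC11 was at 0.05, HOXC5 at -0.10, and in the HOXD cluster HOXD8 was at -0.02 and HOXD11 at 0.02.

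HOXB7 and HOXB5 were lower after miR-99a in every probe set, by amounts well short of 1.5-fold. The 3 probe sets of HOXB7 were at 209 after miR-99a against 242 after si-GL2, at 195 against 240 and at 97.1 against 120, which gave differences of -0.19, -0.28 and -0.27. The 2 probe sets of HOXB5 were at 144 against 157 and at 92.7 against 94.7, or -0.11 and -0.03. These probe sets are all of the _s_ or _x_ kind, which may pick up related transcripts, and probe sets of 1 gene read the same RNA, so their likeness concerns the arrays and not the cultures.

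Among all 16 expressed HOX genes, HOXB1 and HOXB6 were higher by at least 1.5-fold after miR-99a and HOXB3 was lower by at least 1.5-fold. Over all 12218 expressed genes 1.21% were higher and 2.90% lower by this rule. HOXB1 was at 72.1 after miR-99a against 41.1 after si-GL2 (0.62), HOXB6 at 71.5 against 41.3 (0.61) and HOXB3 at 36.2 against 64.1 (-0.62). Each of these 3 genes was above the limit on 1 array only, the array on which it was higher. Genes that pass a mean limit in this way had to differ: of the 367 such genes in the whole data, 6.54% were at least 1.5-fold higher and 9.81% lower. HOXC12, at 63.4 against 38.0, lay just inside 1.5-fold at 0.56 and had passed the limit in the same way.

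The second probe sets of HOXB1, HOXB3 and HOXB6 went the other way. For HOXB1 it was at 16.9 after miR-99a against 32.5 after si-GL2 (-0.56), for HOXB3 at 25.8 against 9.68 (0.70) and for HOXB6 at 7.31 against 12.4 (-0.29). Averaged over their probe sets the 3 genes were at 0.03, 0.04 and 0.16, and none was past 1.5-fold. All 3 second probe sets were below the limit on both arrays.

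**Figure D2:**
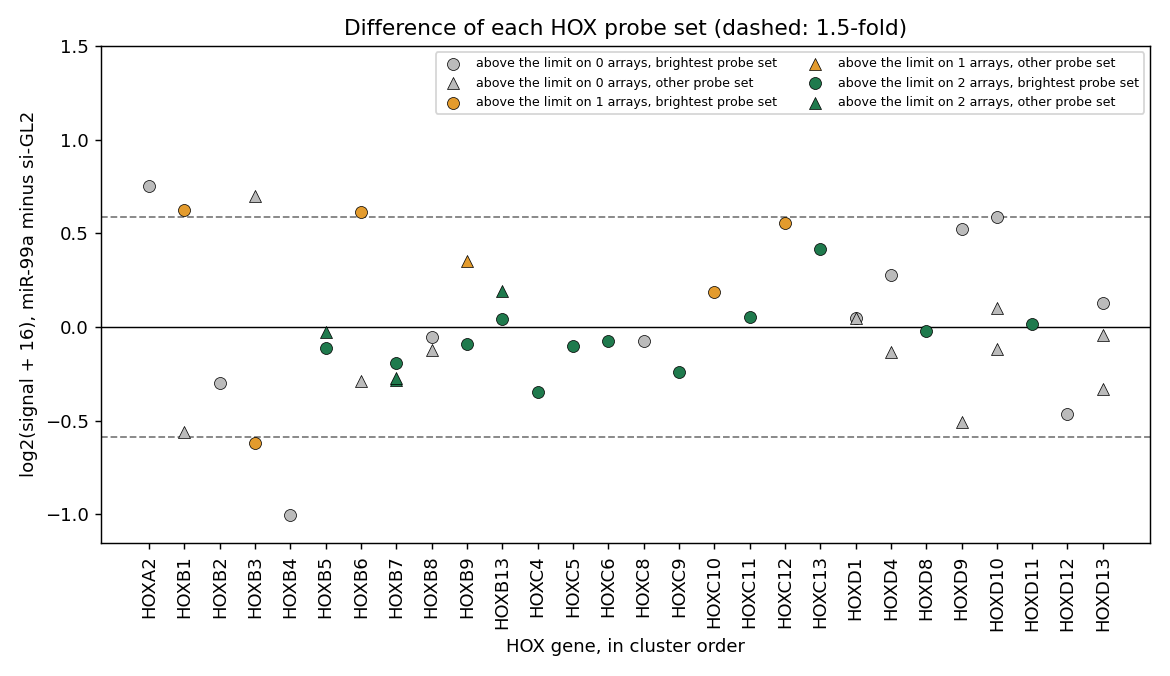
Difference in log2(signal + 16), miR-99a minus si-GL2, of each HOX probe set, by gene in cluster order. Circles are a gene's brightest probe set, triangles its others, colour gives the number of arrays above the level limit (grey 0, orange 1, green 2), and dashed lines mark 1.5-fold; all green points, above the limit on both arrays, lie between the dashed lines, and HOXB1, HOXB3 and HOXB6 have probe sets on opposite sides of 0.

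Of the 13 HOX genes with more than 1 probe set, the signs were the same in 5 and mixed in 8. The 5 were HOXB13, HOXB7, HOXB5, HOXB8 and HOXD1, whose probe sets lay within 0.15 of each other. The mixed genes were HOXB1, HOXB3, HOXB6, HOXB9, HOXD4, HOXD9, HOXD10 and HOXD13. HOXB9 is the 1 mixed gene above the limit on both arrays by its brightest probe set: that probe set was at 110 after miR-99a against 119 after si-GL2 (-0.09), while its second was at 58.1 against 42.0 (0.35). HOXD9 was at 39.7 against 22.8 by 1 probe set and at 1.43 against 8.80 by the other, or 0.52 and -0.51. The other 15 genes had 1 probe set each and could not be compared in this way.

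The 12 HOX genes below the limit included the largest differences of the family, in both directions. HOXB4 was at 2.25 after miR-99a against 20.6 after si-GL2, or -1.0, and HOXD12 at 2.51 against 9.54, or -0.46. HOXA2 was at 30.7 against 11.8, or 0.75, and HOXD10 at 18.9 against 7.26, or 0.59. HOXD9 (0.52), HOXB2 (-0.30) and HOXD4 (0.28) lay within 1.5-fold, and HOXC10, HOXD13, HOXC8, HOXB8 and HOXD1 between -0.07 and 0.19. So 2 of these 12 genes were at least 1.5-fold higher and 1 lower. Over all 7557 genes below the limit 5.62% were higher and 4.96% lower.

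Over all probe sets the spread of the difference widened toward low signals. Ordered by level, the dimmest 25% of all 54675 probe sets had an SD of 0.37 and 12.0% past 1.5-fold in either direction. The next 25% had an SD of 0.34 and 8.47% past it, the 25% above those 0.29 and 4.51%, and the brightest 25% had 0.25 and 3.58%. Of the HOX probe sets, 12 were in the dimmest 25%, of which 2 were past 1.5-fold, 11 in the next with 2, 16 in the one after with 3 and 5 in the brightest with 0. The HOX share past 1.5-fold thus did not fall over the lower 3 of these groups, at few probe sets in each, and was read no further. The 5 brightest were the 2 of HOXB13, 2 of HOXB7 and the 1 of HOXC6, between -0.28 and 0.19.

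**Figure D3:**
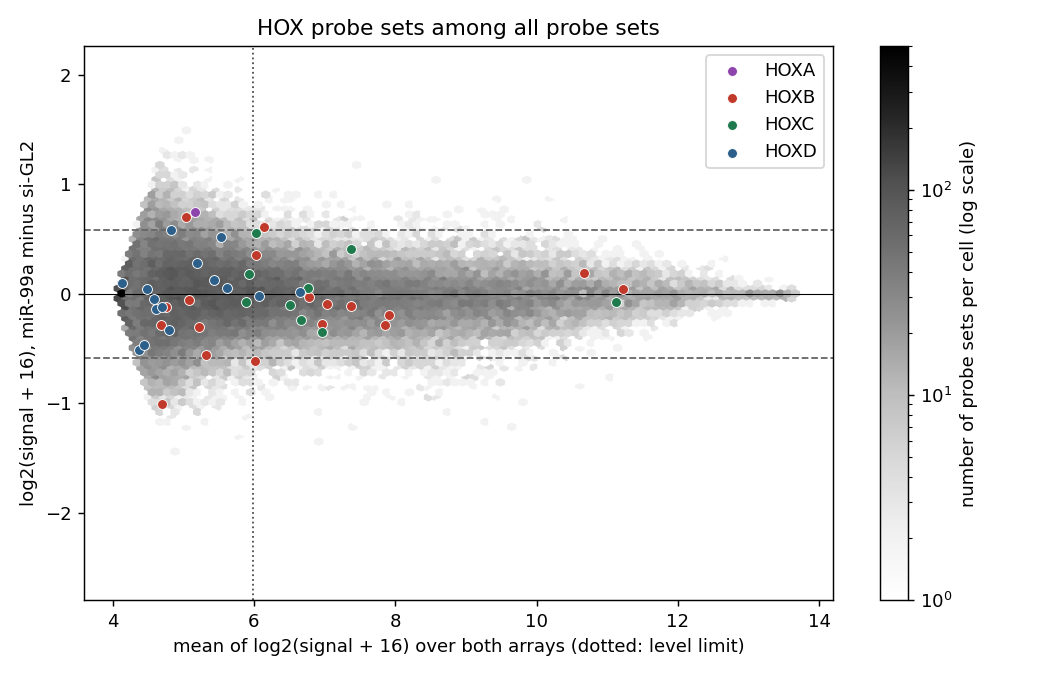
Difference in log2(signal + 16), miR-99a minus si-GL2, against mean log2(signal + 16) over both arrays, for all 54675 probe sets (grey cells, darker with more probe sets) and the 44 HOX probe sets, coloured by cluster. Dashed lines mark 1.5-fold and the dotted line the level limit; the HOX points with large differences lie near or left of the dotted line, where the grey cloud is widest.

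Over 6 lists of cofactors and regulators, 48 genes were expressed, with a median difference of 0.01, and 1 was at least 1.5-fold higher and 1 lower, near the 1.21% and 2.90% over all expressed genes. The 1 lower gene was MEIS1, a TALE homeodomain cofactor of HOX proteins, at 103 after miR-99a against 166 after si-GL2, or -0.61. Its second probe set, below the limit, was at 37.2 against 56.1, or -0.44, and the mean over both was -0.53, short of 1.5-fold. MEIS1 was above the limit on both arrays, and after quantile normalization of the arrays its difference was -0.58, just short of 1.5-fold.

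The other cofactors differed less. Of 8 with a probe set, 5 were expressed: besides MEIS1 these were PKNOX1 at 188 against 156 (0.24), PBX4 at 102 against 87.5 (0.19), PBX2 at 141 against 140 (0.00) and PKNOX2 at 136 against 137 (-0.01). PBX3, at 34.8 against 55.3, MEIS2, at 37.4 against 48.6, and MEIS3, at 30.2 against 29.4, were below the limit, with differences of -0.49, -0.28 and 0.02.

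Of the 26 expressed chromatin regulators 0 were past 1.5-fold by brightest probe set. At 1.21% higher and 2.90% lower over all expressed genes, this is near the background. The 14 expressed Polycomb genes, which encode repressors of HOX clusters, had a median of -0.05. Of these, 9 lay below 0, as did 6876 of all 12218 expressed genes. CBX7, a chromodomain subunit that reads the Polycomb mark, was lowest at 357 after miR-99a against 489 after si-GL2 (-0.44), and CBX2, a subunit of the same kind, was highest at 565 against 434 (0.37). By another probe set whose mean level passed the limit, CBX2 was at 69.2 against 35.7 (0.72) and the Polycomb gene PHC3 at 73.8 against 130 (-0.70). As means over probe sets they were at 0.34 and -0.32, short of 1.5-fold. EZH2, the methyltransferase that writes the mark, was at 505 against 560 (-0.15). The 12 Trithorax-type activators had a median of 0.01. KMT2A, the histone methyltransferase that keeps HOX genes active, was lowest at 378 against 468 (-0.30), although its next 3 probe sets were between 0.08 and 0.23, and WDR5, a shared subunit of these complexes, was highest at 301 against 234 (0.35).

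Retinoic acid, which switches on anterior HOX genes in embryos, acts through a pathway of which 9 genes were expressed, with a median difference of 0.10 and 0 genes past 1.5-fold. RARB, a retinoic acid receptor gene, was lowest at 143 against 174 (-0.25) and RARA highest at 157 against 127 (0.28). The second probe set of RARA went the other way, at 60.6 against 94.6 (-0.53), and the mean over all its probe sets was 0.05. Of the ParaHox and HOX-linked homeobox genes, 2 of 8 were expressed, MNX1 at 1120 against 1325 (-0.24) and GSX2 at 55.6 against 68.8 (-0.24).

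The last of the 6 lists held geminin, SPOP, the acetyltransferases CBP and p300 and the Groucho corepressors of the TLE family. Its 6 expressed genes had a median of 0.36, and TLE1 was the 1 member past 1.5-fold, at 376 after miR-99a against 226 after si-GL2 (0.70). The second probe set of TLE1 was at 183 against 56.1 (1.46), another at 93.3 against 104 (-0.14), and the mean over all its probe sets was 0.45, short of 1.5-fold. SPOP, a ubiquitin ligase adaptor, was at 0.46 and TLE3 at 0.46, and averaging over probe sets put them at 0.21 and 0.14. CREBBP, which encodes CBP, was lowest at -0.03, and GMNN, which encodes geminin, a replication inhibitor that binds HOX proteins, was at 1788 against 1752 (0.03).

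**Figure D4:**
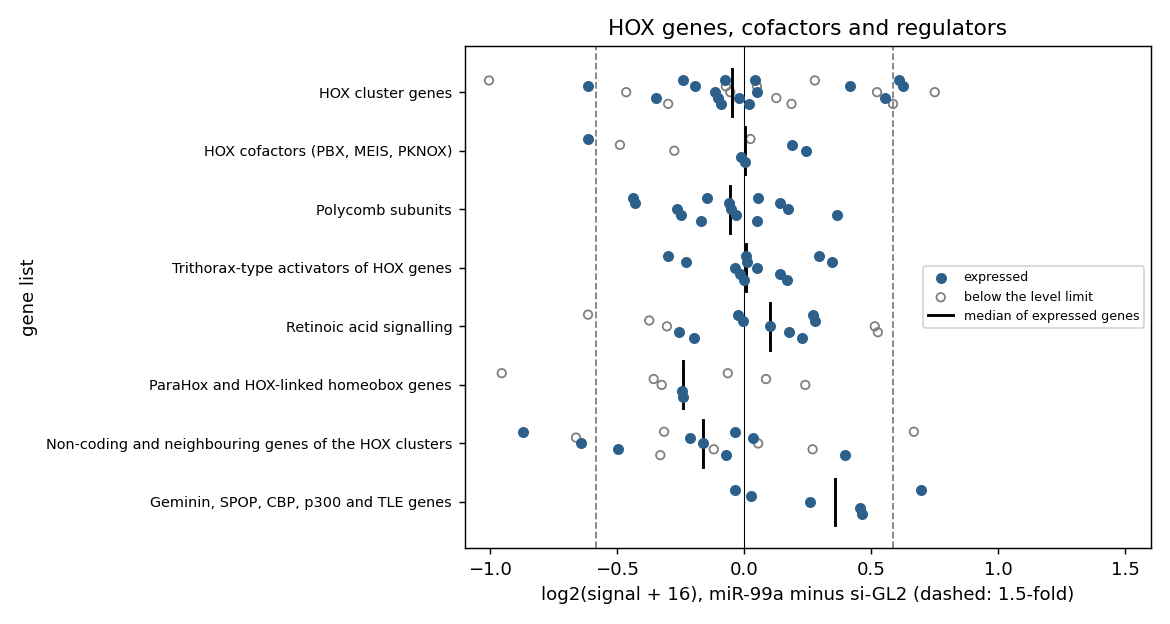
Difference in log2(signal + 16), miR-99a minus si-GL2, by brightest probe set, for the 28 HOX genes and for 7 other gene lists. Filled points are expressed genes, open points lie below the level limit, black bars are medians of expressed genes and dashed lines mark 1.5-fold; besides HOX genes and non-coding RNAs, MEIS1 and TLE1 are the filled points past the lines.

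Non-coding RNAs transcribed from the HOX clusters were mostly as dim as the HOXD genes. HOTAIR, a transcript of the HOXC cluster, was at 8.17 after miR-99a and 4.05 after si-GL2. HOTTIP, from the posterior end of HOXA, was at 117 and 85.1 (0.40), while its other 2 probe sets were between 10.3 and 16.6. HOXB-AS3 was at 59.6 and 68.5 (-0.16). HOXC-AS3, at 39.1 and 18.6 (0.67), and HOXA-AS3, at 18.8 and 39.1 (-0.66), each with 1 probe set, were below the limit, as were HOXA-AS2, HOXB-AS1, HOXD-AS2 and HAGLROS.

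Of the 9 expressed genes of this list 2 were past 1.5-fold, both non-coding RNAs that were lower after miR-99a and had another probe set of opposite sign; 2.90% of all expressed genes were lower by this rule. HOXA11-AS was at 35.2 against 77.6 (-0.87), and its second probe set at 25.3 against 8.64 (0.74). HAGLR, from the HOXD cluster, was at 38.8 against 69.5 (-0.64), with further probe sets at 55.1 against 40.9 (0.32) and at 16.8 against 22.3 (-0.22). Both had been above the limit on the si-GL2 array alone by their brightest probe set. Of the 367 expressed genes above the limit on 1 array only, 9.81% were at least 1.5-fold lower, so the count of 2 was read no further. Of the protein-coding genes that flank the clusters, SNX10 was at 466 against 665 (-0.50), SKAP2 at 1075 against 1250 (-0.21), MTX2 at 958 against 983 (-0.04) and SKAP1 at 49.7 against 48.1 (0.04). The next probe sets of SKAP2 were at -0.33, -0.43, -0.34 and -0.20. Its dimmest, below the limit, was at 0.26, and the mean over its probe sets was -0.21. The 9 expressed genes of the list had a median of -0.16, and 7 lay below 0, beside 6876 of all 12218 expressed genes.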

How the data were processed

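The authors deposited linear signal intensity values, 1 for each of 54675 probe sets on each array. Trizol RNA was biotin-labelled as Affymetrix prescribes, per the labels' protocols; how probes were summarised and arrays scaled is not given in the sources used here. Array medians differed by 0.01 (log2), so values were used as deposited and transformed to log2(signal + 16). The number of arrays, 1 per group, limits the precision, as do low signals, and no test was run. The platform annotation gave 41091 probe sets 1 gene name, 1801 several, and left 11721 unnamed here beside 62 Affymetrix controls; Entrez identifiers of all 28 HOX genes matched the GRCh38.p14 gene table with the same symbol.

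All HOX genes are named; of the other lists, all cofactors and all neighbouring or non-coding genes with a probe set, genes past 1.5-fold, and each list's highest and lowest expressed gene. Genes outside this rule were chosen after their values were seen. Members and lists were chosen with earlier results of these data known. Alternatives were a 2-fold rule, pseudocounts of 1 and 64, quantile normalization, centring, no level limit, a limit at the 75th percentile, the mean over probe sets, leaving out _x_ and _s_ probe sets and, added after the data were seen, the limit reached on both arrays. Counting was checked on simulated data. Computations ran in Python 3.11.15 with pandas 2.3.3 and numpy 2.4.6.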

Additional observations from a re-analysis of the deposited data

How the results depend on the processing

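The expressed HOX genes numbered 16, with 2 higher and 1 lower past 1.5-fold (HOXB1, HOXB6, HOXB3). Those calls fell to 0 higher and 0 lower at 2-fold, with a pseudocount of 64, as means over probe sets, above the 75th percentile of level (3 HOX genes left: HOXB13, HOXC6 and HOXB7) and with the limit reached on both arrays (12 left, chosen after seeing the data). The shares of all genes at these settings were low too. They were 0.14% higher and 0.34% lower at 2-fold and 0.61% and 1.46% with a pseudocount of 64. As means over probe sets they were 0.83% and 1.89%, above the 75th percentile 0.94% and 2.62%, and on both arrays 1.05% and 2.68%. With no level limit all 28 genes counted, 4 higher and 2 lower, against 2.90% and 3.69% of all 19775 genes. Without _x_ and _s_ probe sets 1 was higher and 1 lower among 11 genes, against 1.27% and 3.43% of all genes at that setting. With a pseudocount of 1, HOXC12 was past 1.5-fold too (0.72), where 1.69% of all expressed genes were higher and 3.76% lower. Quantile normalization and centring left the 2 and 1 calls. The shares of all expressed genes were then 1.35% higher and 2.35% lower, and 1.12% and 3.04%. Of the cofactors and regulators, 1 higher (TLE1) and 1 lower (MEIS1) became 0 and 0 at 2-fold and as means over probe sets; MEIS1 was no longer counted with a pseudocount of 64, with quantile normalization or above the 75th percentile (0 lower), and 3 were lower with no limit. Of 135 recomputed HOX gene differences, 134 moved by less than 0.265, the SD over expressed genes. The other was HOXB9 at 0.35 without _x_ and _s_ probe sets. The 2-fold rule and the changed level limits leave a gene's difference as it is, so values at those settings could not move. Centring shifted every gene by the same 0.01. Genes with 1 probe set could not move as means over probe sets. Nor could genes whose brightest probe set is neither _x_ nor _s_ when those kinds were left out. The count of 134 was thus in large part fixed in advance and is no measure of stability. Genes that fell below the limit were not counted among the 135. HOXB1, HOXB3 and HOXB6 dropped out in this way as means over probe sets, where they were at 0.03, 0.04 and 0.16. No paired analysis was possible because each group has 1 array. Dim signals limit 16 of the 28 HOX genes, those below the level limit on at least 1 array.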
